A study of Homo sapiens with 12 samples.

Results

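Testosterone changed the expression of 5899 of 10710 genes in VCaP cells that carried siRNA against PIAS1, and that response is described here across all genes. VCaP is a human prostate cancer cell line from a vertebral bone metastasis. The response compares 6 of the 12 arrays of the study. The treated arrays are 3 from cells given an siRNA pool against PIAS1 (siPIAS1) and 100 nM testosterone for 16 h, set against 3 from cells given siPIAS1 and no testosterone. The other 6 arrays came from cells with a control siRNA pool (siSCR), 3 with the same testosterone treatment and 3 without. They serve to set the response beside that of control cells. All 12 arrays also share the normalization, the choice of probes and the estimate of spread behind each p-value. All cells were in medium with 2.5% charcoal-stripped serum, which is low in steroids, for 100 h and carried their siRNA for 96 h, so that the untreated cells had been kept without added androgen. One cell line and 1 siRNA pool per target were used, and the knockdown left PIAS1 RNA detectable on every array. Nothing in the labels states that the numbered replicates came from separate cultures, and each p-value measures the spread between these samples only, which may be technical.

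Testosterone binds the androgen receptor, a nuclear receptor that then moves onto DNA at androgen response elements and raises or lowers transcription of nearby genes together with pioneer factors and coregulators. In prostate cells its known targets include secreted kallikreins, the cochaperone FKBP5 and the protease TMPRSS2, and VCaP carries a fusion that places the ERG gene under the androgen-responsive TMPRSS2 promoter. PIAS1 is a SUMO E3 ligase, an enzyme that helps to attach the small protein SUMO to target proteins, and it is known as a coregulator of the androgen receptor. The comparison asks which genes respond to androgen when PIAS1 is lowered.

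RNA was read on bead arrays, and the scanner intensities were background-corrected, quantile-normalized and put on a log2 scale, so that a difference of 1 is a 2-fold change. A probe counts as detected on an array where its detection p-value is under 0.01, and a gene is represented by its brightest detected probe, which gave 10710 genes. Differences are siPIAS1 with testosterone minus siPIAS1 without, on the log2 scale and followed by their standard error (±), and a gene is called where the Benjamini-Hochberg adjusted p of limma's moderated test over all genes is under 0.05. Detected probes made up 32.5% to 36.0% of an array, and normalized signals of arrays within a group correlated at 0.978 to 0.996. Replicate 3 of the siPIAS1 group with testosterone stood apart, with a mean correlation of 0.978 to its group where no other array had less than 0.986, so counts are also given without it.

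PIAS1 itself, read by its only detected probe, gave 10.52, 10.59 and 10.83 log2 units in siPIAS1 cells with testosterone, against 9.12, 8.97 and 9.23 in siPIAS1 cells without it. In siSCR cells the values were 11.32, 11.43 and 11.47 with testosterone and 10.25, 10.37 and 10.33 without it. On every array the siPIAS1 cells lay below the siSCR cells of the same treatment, and within each siRNA the arrays with testosterone lay above those without. The siPIAS1 arrays with testosterone also lay above the siSCR arrays without it, so PIAS1 was lowered only relative to siSCR cells of the same treatment. The siRNA lowered PIAS1 without testosterone (-1.21 ± 0.11, adjusted p = 9.00e-06) and with it (-0.76 ± 0.11, adjusted p = 1.50e-04). Testosterone raised PIAS1 in siPIAS1 cells by 1.54 ± 0.11 (limma adjusted p = 3.97e-08), or 1.45 without replicate 3, so the knockdown was not at the same PIAS1 level in both siPIAS1 groups.

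Of 10710 genes, testosterone called 5899 after PIAS1 siRNA, or 55.1%. Of all genes, 2716 (25.4%) were higher and 3183 (29.7%) were lower with testosterone, and the median difference over all genes was -0.03. Without a multiple-testing correction 6423 genes had p under 0.05. A change of at least 2-fold was seen for 1309 of the called genes, which is 12.2% of all genes, with 566 higher and 743 lower. Changes of at least 4-fold numbered 114 higher and 129 lower, and changes of at least 8-fold 36 higher and 29 lower. Most calls were small, with a median size of 0.63 log2 units and 10% of them under 0.345. The 3 arrays with testosterone did not overlap the 3 without it in 6370 genes (59.5%), of which 5645 were called. Among the called genes, 125 were detected on all 3 arrays with testosterone and on none without it, and 341 showed the reverse. A further 7 called genes were detected on none of the 6 siPIAS1 arrays and lay at background throughout. In RNA from a whole culture, fewer cells in a given state and less RNA per cell cannot be told apart.

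Without replicate 3 of the testosterone group, 5949 genes were called, 2807 higher and 3142 lower, and 5301 of the original calls remained with the same direction. No called gene turned its direction. All 1309 genes with a change of at least 2-fold were still called the same way, and 1196 genes reached that size in the smaller set of arrays. The plot sets both estimates against each other. They share every array but replicate 3, so a close match is partly built in.

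**Figure D1:**
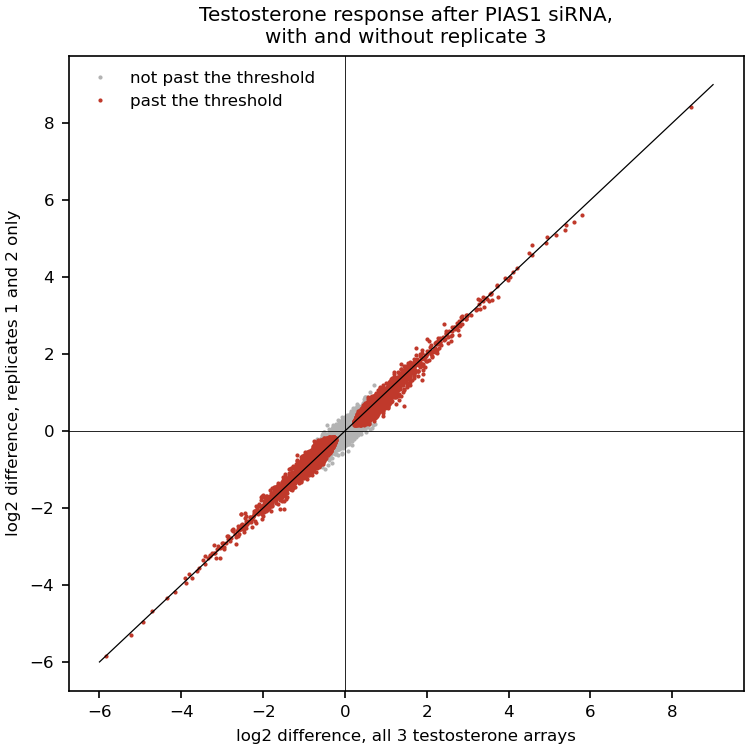
Log2 difference between siPIAS1 cells with and without testosterone for each of 10710 genes, from all 3 testosterone arrays (horizontal axis) and from replicates 1 and 2 only (vertical axis), with the line of equal values; red marks the 5899 genes past the threshold with all arrays. The points follow the line over the whole range, and none of the red points lies on the opposite side of 0. Both estimates share every array but replicate 3.

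The largest increases were in secreted proteins, transporters and a condensin subunit. CST1, which encodes a secreted cystatin that inhibits cysteine proteases, read 13.25, 13.60 and 13.53 with testosterone, against 4.98, 5.04 and 4.99 without it. Without testosterone it was not well above background on any array, so the difference of 8.46 ± 0.11 is given as a bound, at least 156-fold higher with testosterone (limma adjusted p = 9.59e-16). Its relative CST4 read 10.72, 10.96 and 11.39 with testosterone, against 5.50, 5.36 and 5.38 without it, which is at least 28.8-fold higher. Both cystatins gave bright signals with testosterone and were undetected without it, and since they are close copies their probes may not be separable, which was not tested. PGC, the precursor of the aspartic protease gastricsin, read 10.71, 10.67 and 11.24 with testosterone, against 5.02, 4.80 and 5.37 without it, at least 26-fold higher. ORM2, an orosomucoid carried in plasma and secreted as an acute-phase protein, read 11.61, 11.56 and 11.74 with testosterone, against 6.0, 6.07 and 6.60 without it. Without testosterone the probe was detected only on replicate 3, and the difference was 5.41 ± 0.15.

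NCAPD3, a subunit of the condensin II complex that compacts chromosomes, was already detected on every array, with 14.03, 13.95 and 14.47 with testosterone, against 8.83, 8.76 and 8.74 without it. This 41.4-fold rise (5.37 ± 0.12, adjusted p = 4.48e-13) was the largest among the leading genes detected on all 6 arrays. The glucose transporter gene SLC2A3 read 11.66, 11.50 and 11.75 with testosterone, against 6.75, 6.52 and 6.18 without it, a difference of 5.15 ± 0.14. Its probe was detected on 5 of the 6 siPIAS1 arrays. The value of 6.18 lay under the lowest detected signal of its array (6.315), so the size of this rise is uncertain. In both genes the arrays with testosterone lay far above those without. Further genes not well above background without testosterone were SLC26A3, a chloride and bicarbonate exchanger (at least 14-fold higher), the calcium-binding S100P (at least 13.5-fold), the metalloreductase STEAP4 (at least 8.51-fold), the endosomal membrane protein gene ENTREP1 (at least 19-fold), SERPINA3, which encodes the serine protease inhibitor antichymotrypsin (at least 8.31-fold), and PWWP3B (at least 10.2-fold). STEAP4 varied most among these on the arrays with testosterone, with 9.39, 9.66 and 8.74, and its difference was 4.58 with replicate 3 and 4.84 without it. For the other leading genes that rose, leaving out replicate 3 moved the difference by less than that.

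**Figure D2:**
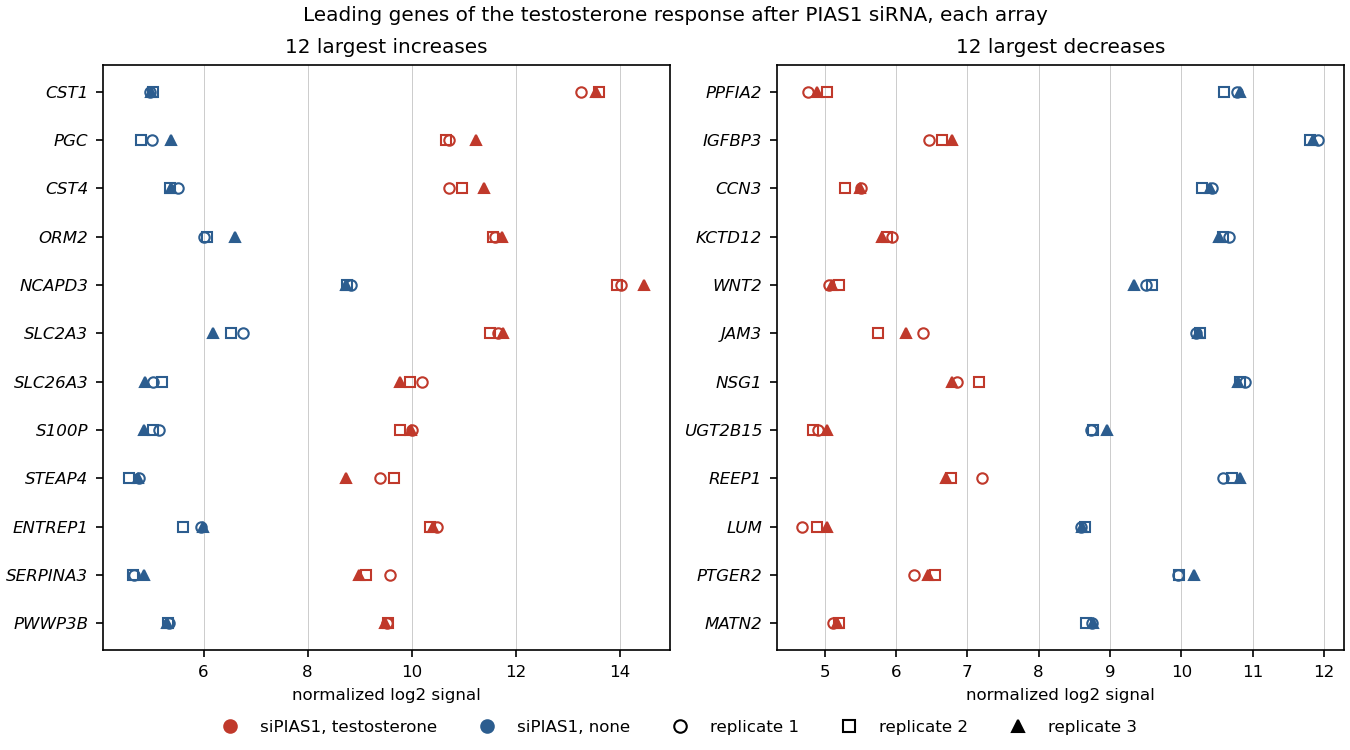
Normalized log2 signal on each array (horizontal axis) of the 12 genes with the largest increase (left) and the 12 with the largest decrease (right) with testosterone after PIAS1 siRNA; red is with testosterone, blue without, and the filled triangle is replicate 3. The 24 genes were chosen among those whose red and blue points do not overlap. CST1 moves farthest among increases and PPFIA2 among decreases.

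The largest decreases fell on a synaptic scaffold gene, growth factor binding proteins and cell-surface or matrix proteins. PPFIA2, which encodes a liprin of presynaptic sites, read 4.76, 5.04 and 4.90 with testosterone, against 10.78, 10.60 and 10.82 without it. It lost detection on all 3 arrays with testosterone, so it was at least 22.5-fold lower (limma adjusted p = 1.02e-13). IGFBP3, which binds insulin-like growth factors in the extracellular space, read 6.47, 6.65 and 6.78 with testosterone, against 11.92, 11.80 and 11.85 without it, a 37.4-fold fall with detection kept on every array, and its second probe gave -4.82. The matricellular CCN3 read 5.51, 5.29 and 5.50 with testosterone, against 10.43, 10.29 and 10.41 without it (at least 17.5-fold lower). The secreted ligand WNT2 read 5.06, 5.20 and 5.11 with testosterone, against 9.50, 9.59 and 9.34 without it (at least 9.42-fold lower). In these 4 genes the highest array with testosterone lay more than 4 log2 units below the lowest array without it. KCTD12, an auxiliary subunit of GABA-B receptors, read 5.94, 5.88 and 5.80 with testosterone, against 10.67, 10.59 and 10.52 without it (at least 20.4-fold lower). UGT2B15, an enzyme that inactivates androgens by glucuronidation, read 4.90, 4.84 and 5.03 with testosterone, against 8.74, 8.77 and 8.95 without it (at least 5.97-fold lower). The remaining leading decreases were in the junctional adhesion molecule gene JAM3 (-4.15 ± 0.13), the endosomal protein gene NSG1 of neurons (-3.90 ± 0.11), the endoplasmic reticulum shaping gene REEP1 (-3.81 ± 0.13), the prostaglandin E2 receptor gene PTGER2 (-3.62 ± 0.11), and the matrix genes LUM (at least 5.20-fold lower) and MATN2 (at least 5.61-fold lower).

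The gene lists that follow were written from textbook knowledge of androgen action and of general cell functions. Earlier results of these data were known when the members were chosen, so the counts describe the lists and are no independent test of them. Each list is described by its counts and its median, to be read against 25.4% higher, 29.7% lower and a median of -0.03 among all genes. Most of the classical androgen-induced genes rose. Of 36 listed, 30 were measured, and 28 of them were higher, 1 was lower and 1 was not past the threshold, with a median difference of 1.27; 17 rose at least 2-fold. Without replicate 3 the counts were 27 higher and 1 lower. FKBP5, a cochaperone of steroid receptors, read 14.72, 14.72 and 14.88 with testosterone, against 10.80, 10.77 and 10.81 without it (3.98 ± 0.09, adjusted p = 4.48e-13). ERRFI1, a feedback inhibitor of the EGF receptor, read 13.24, 12.89 and 12.83 with testosterone, against 9.02, 9.12 and 9.12 without it (3.90 ± 0.11), and the kinase gene SGK1 read 9.52, 9.58 and 9.68 with testosterone, against 6.38, 6.37 and 6.46 without it (3.20 ± 0.10). These 3 genes had narrow groups that lay 3 to 4 log2 units apart. ORM1, the second orosomucoid, was at least 4.99-fold higher, and its probe may not be separable from that of ORM2. The 1 member that fell was ADAMTS1, a secreted metalloprotease, with 8.76, 8.58 and 8.70 with testosterone, against 9.03, 8.81 and 9.02 without it. Its difference of -0.28 ± 0.11, adjusted p = 0.0376 was lost when siPIAS1 replicate 1 or 3, or replicate 2 of the testosterone group, was left out, and with scaling to the 75th percentile.

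The kallikreins, proteases that the prostate secretes into seminal fluid, were called for KLK3 and KLK4 and not for KLK2 and KLK15. KLK3, which encodes prostate-specific antigen, read 7.25, 7.38 and 7.79 with testosterone, against 6.31, 6.30 and 6.73 without it and rose by 1.03 ± 0.17, adjusted p = 1.78e-04 by limma. Without testosterone its values lay close to the lowest detected signals of those arrays (6.108, 6.095 and 6.315), so the size of the rise is uncertain. KLK2, which lies beside KLK3 on chromosome 19, read 13.18, 13.26 and 13.23 with testosterone, against 13.36, 13.41 and 13.42 without it. Its arrays with testosterone lay below those without, and the difference of -0.17 ± 0.11, adjusted p = 0.185 did not pass. KLK4 read 14.90, 14.87 and 14.87 with testosterone, against 14.38, 14.35 and 14.46 without it (0.48 ± 0.08, adjusted p = 2.48e-04), and KLK15 did not pass (-0.08 ± 0.10, adjusted p = 0.515). KLK4 and KLK15 were added to the named genes after their values were seen. Signals of different probes cannot be set against each other, so no order of levels among the kallikreins is given.

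The stretches of 250 bases before the start of KLK3 and KLK2 are shown because these neighbouring genes differed in whether the call passed, together with SERPINA3, the leading gene, among those in the RefSeq table used, whose stretch came nearest to the androgen response element. They are from RefSeq's table for GRCh38.p14 and lie on the + strand at chr19:50854665-50854914, chr19:50873189-50873438 and chr14:94612141-94612390. Capitals mark the 15-base window closest to the motif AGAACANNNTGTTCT, which is a palindrome and so reads alike on both strands, compared over its 12 fixed letters.
KLK3: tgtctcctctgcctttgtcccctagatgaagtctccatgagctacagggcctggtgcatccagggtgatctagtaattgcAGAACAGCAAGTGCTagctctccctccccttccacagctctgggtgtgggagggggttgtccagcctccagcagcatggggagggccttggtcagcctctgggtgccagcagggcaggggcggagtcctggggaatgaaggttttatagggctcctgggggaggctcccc
KLK2: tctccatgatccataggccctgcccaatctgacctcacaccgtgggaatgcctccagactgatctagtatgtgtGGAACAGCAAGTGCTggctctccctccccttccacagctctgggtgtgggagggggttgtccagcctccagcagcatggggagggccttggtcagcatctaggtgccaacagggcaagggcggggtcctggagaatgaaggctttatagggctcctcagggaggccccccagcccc
SERPINA3: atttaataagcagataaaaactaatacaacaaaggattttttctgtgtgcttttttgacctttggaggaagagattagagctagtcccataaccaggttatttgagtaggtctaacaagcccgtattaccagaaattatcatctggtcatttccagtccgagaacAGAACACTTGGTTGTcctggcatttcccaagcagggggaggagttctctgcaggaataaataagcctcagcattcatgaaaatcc
The window of KLK3 begins 170 bases before the start and has 2 mismatches, that of KLK2 begins 176 bases before it and has 3, and that of SERPINA3 begins 85 bases before it and has 2. A window with at most 2 mismatches stands in 1.19% of all 27305 promoters of the table and in 0.52% of the 8653 that belong to measured genes. Among genes that changed at least 2-fold, it stands in 4 of the 449 promoters of genes that rose (0.891%) and in 4 of the 586 promoters of genes that fell (0.683%). These shares rest on few promoters and were not compared by a test. The shorter site AGAACA, read on either strand as TGTTCT too and also found inside the full motif, stands in 4.68% of the first set, 7.51% of the second and 7.29% of those of measured genes. A match is a description of letters and not of receptor binding, and the window leaves out more distant elements.

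Among 22 listed secreted prostate proteins, 15 were measured. Of these 8 were higher, 2 were lower and 5 were not past the threshold, with a median of 0.48 and the same counts without replicate 3. Besides CST1, CST4, PGC and ORM2, the list held MSMB, the microseminoprotein of seminal plasma, which read 8.44, 8.70 and 8.26 with testosterone, against 7.09, 7.0 and 6.85 without it (1.49 ± 0.13) and was added to the named genes after its values were seen. The largest member against this direction was TFF1, a trefoil peptide of mucous secretions, with 7.19, 7.22 and 8.0 with testosterone, against 9.56, 9.72 and 9.22 without it. Replicate 3 gave the highest of its values with testosterone, and the fall was -2.03 ± 0.20 with that array and -2.30 without it.

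Genes listed here as repressed by androgen mostly fell, and the listed UGT2B28, UGT2B11 and GREB1 rose. Of 17 listed, 15 were measured, with 11 lower, 3 higher and 1 not past the threshold, and the median was -1.14 (10 lower and 3 higher without replicate 3). FOLH1, which encodes prostate-specific membrane antigen, read 7.30, 7.16 and 7.43 with testosterone, against 10.14, 10.16 and 10.47 without it (-2.96 ± 0.13), and its other probe gave -3.54. BCHE, the butyrylcholinesterase gene, was at least 1.96-fold lower, with no detection on the arrays with testosterone. UGT2B28 read 9.21, 8.97 and 9.0 with testosterone, against 5.40, 5.26 and 5.33 without it, at least 7.39-fold higher (limma adjusted p = 1.40e-11), while its relative UGT2B15 fell as described above. The members of the UGT2B family, which lie on chromosome 4 and glucuronidate steroids, thus had both directions. UGT2B17 fell by 1.67 ± 0.13 and UGT2B11 rose by 1.04 ± 0.15. UGT2B10 changed by -0.30 ± 0.10, adjusted p = 0.0211, a call that was lost without siPIAS1 replicate 2. These 3 were named after their values were seen, and the probes of such close copies may not be separable. GREB1, a hormone-regulated gene also named after its value was seen, rose by 1.34 ± 0.12. Of 13 measured genes of steroid metabolism, 6 were lower, 3 were higher and 4 were not past the threshold, with 4 lower and 3 higher without replicate 3. AKR1C3, which reduces androstenedione to testosterone, read 7.89, 7.66 and 7.36 with testosterone, against 10.38, 10.43 and 10.32 without it (-2.74 ± 0.12). HSD17B6, an oxidoreductase of androgen metabolism, fell by 1.89 ± 0.13.

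Most of the receptor's cofactors and of the SUMO machinery had small differences. Of 20 measured pioneer factors, coregulators and chaperones of the androgen receptor, 2 were higher, 7 were lower and 11 were not past the threshold, a called share of 45.0% beside 55.1% of all genes. FKBP5 had the largest rise. NCOA7, a nuclear receptor coactivator, was at least 2.72-fold lower, not detected with testosterone. GATA2, a pioneer factor for the receptor in prostate cells, read 10.21, 10.37 and 10.57 with testosterone, against 11.21, 11.09 and 11.44 without it (-0.86 ± 0.12), and ZMIZ1, a PIAS-like coregulator, changed by -0.69 ± 0.12. Among 14 measured genes of SUMO conjugation, 4 were higher, 4 were lower and 6 were not past the threshold, or 2 higher and 5 lower without replicate 3. Their median of -0.05 turned to 0.0032 without siPIAS1 replicate 3. Apart from PIAS1, the changes were under 2-fold. They included SAE1 of the SUMO-activating enzyme (-0.52 ± 0.11), SUMO2 itself (-0.55 ± 0.13) and the SUMO protease gene SENP7 (-0.52 ± 0.12).

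Most genes of DNA replication and mitosis fell. Of 36 measured replication genes, 31 were lower, 1 was higher and 4 were not past the threshold, with a median of -0.86 beside -0.03 for all genes, and 14 fell at least 2-fold. Without replicate 3, 33 were lower and 1 was higher. PRIM1, the primase subunit that starts new DNA strands, read 8.42, 8.49 and 8.16 with testosterone, against 9.97, 10.12 and 10.23 without it (-1.75 ± 0.11, adjusted p = 1.64e-08). CDC45, part of the replicative helicase, read 9.0, 8.94 and 8.77 with testosterone, against 10.56, 10.61 and 10.37 without it (-1.61 ± 0.10). MCM4, another helicase subunit, fell by 1.55 ± 0.10 and RFC4, which helps to load the sliding clamp, by 1.70 ± 0.11. GINS3, also of the helicase, was the 1 member that rose, by 0.57 ± 0.09. Of 36 measured mitosis genes, 31 were lower, none was higher (by limma, and none at an unadjusted p under 0.05) and 5 were not past the threshold, with a median of -0.66. Without replicate 3 there were 32 lower and 1 higher. The spindle checkpoint gene MAD2L1 read 9.11, 9.51 and 9.30 with testosterone, against 10.56, 10.54 and 10.48 without it (-1.22 ± 0.12). NCAPG, a subunit of condensin I, changed by -0.88 ± 0.11 and the spindle motor gene KIF11 by -0.85 ± 0.11, each opposite in sign to the condensin II gene NCAPD3. SMC4, a core subunit of both condensins, fell by 0.80 ± 0.10 on its brightest probe, while its other probes gave 0.43 and -0.15.

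Among 25 measured G1 cyclins, CDK inhibitors and E2F factors, 7 were higher and 10 were lower, and without replicate 3 there were 7 and 13. The 10 include RBL1, which was not detected on any of the 6 siPIAS1 arrays. CDKN1A, which encodes the CDK inhibitor p21, read 12.51, 12.36 and 12.90 with testosterone, against 11.21, 11.14 and 11.18 without it (1.41 ± 0.12, adjusted p = 3.75e-07). SKP2, an adaptor that marks CDK inhibitors for degradation, read 10.01, 9.996 and 10.05 with testosterone, against 11.45, 11.43 and 11.64 without it (-1.49 ± 0.09). The transcription factor gene E2F2 fell by 1.70 ± 0.20 and CCNG2, an atypical cyclin gene, by 1.77 ± 0.14. Of 9 measured genes of the MYC network, 5 were lower and 2 were higher, or 4 and 2 without replicate 3. MYC itself read 10.09, 9.96 and 9.59 with testosterone, against 12.83, 12.76 and 12.65 without it, which is 7.31-fold lower (-2.87 ± 0.12, adjusted p = 2.16e-10), and its second probe gave -3.04. The arrays with testosterone lay more than 2 log2 units below the others. MXI1, an antagonist of MYC, was at least 1.87-fold lower, MXD3 of the same group changed by -0.62 ± 0.12, and MLX rose by 1.30 ± 0.16. Genes of ribosome biogenesis, many of them known MYC targets, showed 10 lower, 2 higher and 10 not past the threshold among 22 measured, a called share of 54.5% that lies near the 55.1% of all genes. Without replicate 3 there were 9 lower and 3 higher. The largest change was that of WDR12, an assembly factor of the large subunit (-1.02 ± 0.12). POLR1B, an RNA polymerase I subunit gene, changed by -0.81 ± 0.10, FBL, which encodes the methyltransferase fibrillarin, by -0.60 ± 0.11, and RRP12 rose by 0.54 ± 0.10.

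Most genes of the early secretory pathway rose. Of 26 measured genes of the unfolded protein response and of folding in the endoplasmic reticulum, 22 were higher, none was lower (nor at an unadjusted p under 0.05 by limma) and 4 were not past the threshold, with a median of 0.91 and 12 rises of at least 2-fold. Without replicate 3, 23 were higher. DNAJB9, a cochaperone of the endoplasmic reticulum, read 9.64, 9.72 and 9.65 with testosterone, against 7.53, 7.70 and 7.92 without it (1.96 ± 0.12, adjusted p = 1.30e-08). The chaperone gene HYOU1 read 10.54, 10.47 and 10.63 with testosterone, against 9.35, 9.32 and 9.37 without it (1.20 ± 0.09). CRELD2, a secreted stress-induced protein gene, rose by 1.32 ± 0.10, and DNAJC3, an inhibitor of the kinase PERK, was at least 1.90-fold higher. Of 34 measured genes of COPII and COPI vesicle transport, which carry cargo between the endoplasmic reticulum and the Golgi, 24 were higher, none was lower by limma and 10 were not past the threshold, with a median of 0.60 (26 higher without replicate 3). At an unadjusted p under 0.05 there were 27 higher and still none lower. The COPII coat gene SEC24D read 9.51, 9.66 and 9.50 with testosterone, against 8.16, 8.09 and 8.25 without it (1.39 ± 0.11), and the cargo receptor gene TMED9 read 12.98, 12.89 and 13.47 with testosterone, against 11.76, 11.53 and 11.68 without it (1.45 ± 0.14). COPE of the COPI coat rose by 1.10 ± 0.10 and TMED10 by 0.98 ± 0.09.

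Sugar transfer in the same organelles was more mixed. Of 32 measured genes, 19 were higher, 3 were lower and 10 were not past the threshold, with a median of 0.39 (21 higher and 3 lower without replicate 3). ST6GALNAC1, a sialyltransferase gene that makes the sialyl-Tn antigen, read 11.22, 11.06 and 11.12 with testosterone, against 7.86, 7.64 and 7.80 without it (3.37 ± 0.12, adjusted p = 2.77e-11). UAP1, which makes the UDP-N-acetylglucosamine used as sugar donor, read 11.74, 11.82 and 11.74 with testosterone, against 9.76, 9.71 and 9.66 without it (2.06 ± 0.10), and GMPPB, which makes GDP-mannose, rose by 1.61 ± 0.11. MAN2A1, a Golgi mannosidase gene, went against these with 6.83, 6.72 and 6.62 with testosterone, against 8.26, 8.33 and 8.44 without it (-1.62 ± 0.12).

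Most cholesterol genes rose, while genes of fatty acids held both directions. Of 20 measured genes of cholesterol synthesis and uptake, 12 were higher, 1 was lower and 7 were not past the threshold, with a median of 0.41 (13 higher and 1 lower without replicate 3). NSDHL, a sterol dehydrogenase gene, read 11.71, 11.73 and 12.04 with testosterone, against 10.16, 10.24 and 10.10 without it (1.66 ± 0.11). IDI1, which makes the isoprenoid building block dimethylallyl diphosphate, rose by 1.41 ± 0.10, INSIG1, a sterol-sensing brake on the pathway, by 1.12 ± 0.09 and the mevalonate pathway gene MVD by 1.02 ± 0.15. The 1 member that fell, the sterol reductase gene TM7SF2, did so by 0.27 ± 0.09 (limma adjusted p = 0.0239), a call that was lost without siPIAS1 replicate 2 or 3, without replicate 1 of the testosterone group, and with scaling to the 75th percentile. In fatty acid synthesis and activation the counts were 12 higher and 8 lower of 24 measured. ELOVL5, an elongase of unsaturated fatty acids, read 12.33, 12.36 and 12.55 with testosterone, against 10.27, 10.19 and 10.15 without it (2.21 ± 0.10), and ELOVL7 rose by 1.33 ± 0.09. FABP5, a fatty acid carrier, read 7.99, 7.97 and 7.86 with testosterone, against 10.57, 10.61 and 10.53 without it (-2.63 ± 0.14), and GPAT3, which starts glycerolipid synthesis, was at least 1.37-fold lower. In fatty acid oxidation and peroxisomes 7 rose and 7 fell of 22 measured, with a median of -0.04 that became 0.05 with scaling to the 75th percentile. AMACR, a racemase used as a prostate cancer marker, read 13.99, 13.85 and 13.71 with testosterone, against 11.51, 11.58 and 11.78 without it (2.23 ± 0.11). HADH and ACAA2 of mitochondrial oxidation fell by 1.30 ± 0.16 and 0.98 ± 0.10, and the reductase gene DECR2 rose by 1.13 ± 0.15.

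Of 26 measured genes of glucose uptake and glycolysis, 14 were higher, 3 were lower and 9 were not past the threshold, with a median of 0.34. SLC2A3, described above, had the largest rise. ALDOA, the aldolase gene, read 11.70, 11.91 and 11.77 with testosterone, against 10.56, 10.88 and 10.67 without it (1.09 ± 0.11), and the enolase gene ENO1 rose by 0.79 ± 0.09. The phosphofructokinase gene PFKM fell by 0.92 ± 0.10 and the neuronal enolase gene ENO2 by 1.68 ± 0.20. All 14 listed polyamine genes were measured, with 7 higher and 3 lower, or 7 and 4 without replicate 3. ODC1, the ornithine decarboxylase that starts polyamine synthesis, read 14.69, 14.69 and 14.76 with testosterone, against 12.09, 12.06 and 12.16 without it (2.61 ± 0.09, adjusted p = 2.00e-11). The spermine synthase gene SMS rose by 1.56 ± 0.10 and SAT1, which acetylates polyamines for breakdown or export, by 1.18 ± 0.10, whereas ARG2, the arginase gene, fell by 1.49 ± 0.10. Of 17 measured genes of the amino acid response, 8 were higher and 5 were lower, or 7 and 6 without replicate 3. ATF3, a stress-induced transcription factor gene, was at least 1.95-fold higher and the lipoprotein receptor gene VLDLR rose by 1.03 ± 0.12, whereas PSAT1 of serine synthesis fell by 1.11 ± 0.09 and the secreted glycoprotein gene STC2 by 1.77 ± 0.09.

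Growth factor pathways held both directions. Of 11 measured genes of the insulin-like growth factor axis, 7 were lower and 3 were higher. After IGFBP3, the second binding protein gene IGFBP5 read 6.65, 6.61 and 6.68 with testosterone, against 9.10, 9.04 and 9.26 without it (-2.49 ± 0.13), and the receptor adaptor gene GRB10 fell by 1.55 ± 0.12, though 1 of its other probes gave 0.26. The receptor gene IGF1R read 9.97, 9.75 and 10.75 with testosterone, against 8.58, 8.43 and 8.43 without it, a rise of 1.68 ± 0.21 that was 1.38 without replicate 3. Among 11 measured feedback genes of receptor tyrosine kinases, 5 were higher and 2 were lower. SPRY1, which dampens RAS and ERK signalling, read 6.59, 6.48 and 5.88 with testosterone, against 8.41, 8.34 and 8.69 without it (-2.17 ± 0.16), detected on 2 of the 3 arrays with testosterone, while SPRED1 of the same family rose by 1.21 ± 0.18 and the immediate early gene EGR1 by 0.77 ± 0.15. Of 27 measured WNT genes, 7 were higher and 10 were lower, a called share of 63.0%, and without replicate 3 there were 7 and 12. Ligands and receptors each held both directions. WNT10B was at least 2.24-fold lower beside WNT2, and the receptor gene FZD5 read 9.91, 9.64 and 9.43 with testosterone, against 6.86, 6.52 and 6.99 without it (2.87 ± 0.17). FZD8, another receptor gene, read 9.64, 9.60 and 9.59 with testosterone, against 7.32, 7.39 and 7.23 without it (2.30 ± 0.09). The receptor gene FZD3 changed by -1.37 ± 0.11 and FZD2 and FZD4 by -0.82 ± 0.13 and -0.77 ± 0.10, while the ligand gene WNT7B changed by 0.86 ± 0.18. These 4 were named after their values were seen, and all 4 were called. Of 20 measured genes of the TGF-beta and BMP response, 6 were higher and 10 were lower. SMAD3, which carries TGF-beta signals to the nucleus, read 6.52, 6.38 and 6.41 with testosterone, against 8.27, 8.0 and 8.33 without it (-1.76 ± 0.13), INHBB, an inhibin and activin subunit gene, fell by 1.65 ± 0.14 and the repressor gene TGIF1 by 0.97 ± 0.10. The BMP receptor gene BMPR1B rose by 1.84 ± 0.14 and ID1, a BMP target, by 2.12 ± 0.24.

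Of 13 measured NF-kB response genes, 8 were higher and 3 were lower, with a median of 0.57. TNFAIP3, which encodes the inhibitor A20, read 8.42, 8.17 and 8.37 with testosterone, against 6.21, 5.84 and 5.93 without it (2.33 ± 0.12, adjusted p = 1.94e-09) and was detected on 1 of the 3 arrays without testosterone. The inhibitor gene NFKBIA rose by 0.78 ± 0.11 and BCL3 by 0.99 ± 0.12, while NFKB1, which encodes a subunit of the factor, fell by 0.85 ± 0.11. Of 18 measured interferon response genes, 9 were lower and 4 were higher, with a median of -0.30 (10 lower and 4 higher without replicate 3). The antiviral genes OAS3 and PARP14 fell by 1.52 ± 0.10 and 0.87 ± 0.12, MX1 was at least 1.77-fold lower, and the exonuclease gene ISG20 rose by 1.61 ± 0.12. Of 16 measured p53 targets, 6 were higher and 5 were lower, or 5 and 6 without replicate 3. GDF15, a secreted stress cytokine gene, rose by 1.85 ± 0.12 and CDKN1A as given above, while SESN1 fell by 1.78 ± 0.11 and TP53INP1 by 1.21 ± 0.14. Both lists thus held changes of at least 2-fold in each direction.

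ERG and TMPRSS2, the partners of the fusion in VCaP, both rose. ERG read 8.33, 8.16 and 8.13 with testosterone, against 7.02, 7.05 and 7.07 without it (1.16 ± 0.09, adjusted p = 1.02e-07), and TMPRSS2 read 13.54, 13.61 and 13.70 with testosterone, against 12.33, 12.31 and 12.47 without it (1.25 ± 0.09). Of the 14 measured ERG-linked genes, which include both, 4 were higher and 6 were lower, with the same counts without replicate 3. Their median of -0.06 became 0.04 with scaling to the 75th percentile and -0.20 without replicate 3. The trefoil gene TFF3 read 9.73, 9.77 and 9.95 with testosterone, against 11.23, 11.50 and 11.43 without it (-1.57 ± 0.12).

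**Figure D3:**
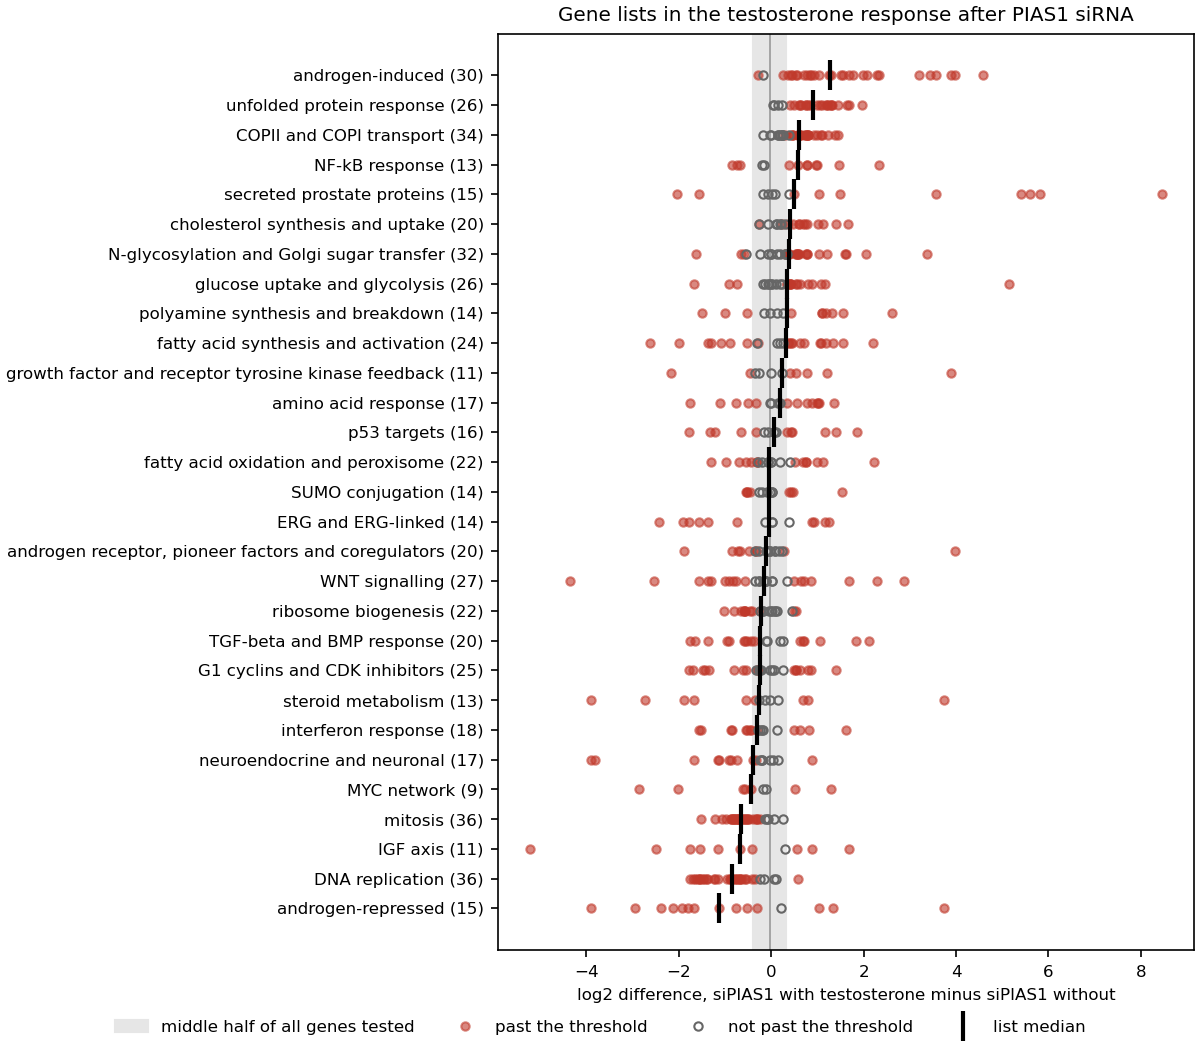
Log2 difference between siPIAS1 cells with and without testosterone (horizontal axis) for each measured gene of 29 lists, with the number measured in parentheses; red points are past the threshold, open points are not, black bars are list medians and the grey band spans the middle quartiles of all 10710 genes. The lists run from androgen-induced at the top, with a median of 1.27, to androgen-repressed at the bottom, with a median of -1.14, and the DNA replication and mitosis points lie almost wholly left of 0.

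The labelled cell type was checked against its markers, and the values stand beside the results because a shift of cell types in the cultures was not tested. Of 10 luminal prostate markers 8 were measured, all detected on every one of the 6 siPIAS1 arrays. By limma 4 were higher and none was lower, also at an unadjusted p under 0.05. KRT8, KRT18 and KRT19, keratins of luminal cells, rose by 1.39 ± 0.13, 0.87 ± 0.13 and 0.99 ± 0.16. The summed linear signal of the 8 was 65900 to 74800 with testosterone, against 60100 to 62700 without it. Of 7 basal markers, KRT5, KRT14, KRT15, ITGB4 and LAMB3 were detected on no array. DST, the only basal marker measured, read 6.02, 6.11 and 5.83 with testosterone, against 6.99, 7.24 and 6.95 without it, at least 1.76-fold lower. Of 8 neuroendocrine markers 6 were measured, with 3 lower and 1 higher, and NCAM1 was detected on no array. The granin genes CHGA (-1.16 ± 0.16) and CHGB (-0.73 ± 0.10) were lower, and SYP, which encodes synaptophysin, was higher (0.88 ± 0.15). Their summed signal was 2470 to 3440 with testosterone, against 5180 to 5780 without it. In the wider neuronal list 10 of 17 measured genes were lower and 1 was higher, and NEFL, a neurofilament gene, fell by 0.92 ± 0.12.

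Of 9 fibroblast and smooth muscle markers 3 were measured, of which LUM fell, and VIM and ACTA2 were not past the threshold (0.03 ± 0.14 and 0.11 ± 0.10). COL1A2, COL3A1, DCN, MYH11 and DES were detected on no array. The summed signal of the 3 was 781 to 998 with testosterone, against 1210 to 1240 without it. Of 8 blood and endothelial markers 3 were measured, of which CD14 and CD68 were not past the threshold (-0.15 ± 0.12 and -0.01 ± 0.13). PTPRC, CD3E, PECAM1 and CDH5 were detected on no array. The third measured marker, LYZ, encodes the antibacterial enzyme lysozyme, which glandular cells also secrete, and read 8.90, 9.02 and 9.06 with testosterone, against 4.87, 4.97 and 5.04 without it, at least 7.07-fold higher. With it the summed signal of these 3 was 1300 to 1390 with testosterone, against 720 to 1020 without it.

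To see where the response after PIAS1 siRNA differs from that of control cells, the difference between both testosterone responses was tested. In siSCR cells testosterone called 4748 genes (44.3%). This count and the 5899 in siPIAS1 cells both depend on the estimate of spread that all groups share. Without replicate 3 of the siPIAS1 group with testosterone, 5767 genes were called in siSCR cells and 5949 in siPIAS1 cells. With array weights the counts were 6451 and 6385. The difference, siPIAS1 response minus siSCR response, passed for 1065 genes (9.94%), with 523 positive and 542 negative. A positive value means a larger rise or a smaller fall after PIAS1 siRNA. Single arrays moved this count. Of the siPIAS1 group with testosterone, leaving out replicate 2 gave 1506 and leaving out replicate 3 gave 1438. The count was 663 and 706 without siPIAS1 replicates 3 and 1, 668 without siSCR replicate 3, and 676 and 656 without replicates 2 and 3 of the siSCR group with testosterone.

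In the largest positive differences, a fall seen in siSCR cells did not pass or was turned round in siPIAS1 cells, or a rise was seen in siPIAS1 cells where the gene stayed below detection in siSCR cells. TRIM51, of the tripartite motif family on chromosome 11, read 10.97, 10.56 and 11.28 with testosterone, against 11.19, 11.004 and 11.21 without it in siPIAS1 cells. In siSCR cells it read 6.59, 6.24 and 6.26 with testosterone, against 10.95, 10.74 and 11.03 without it. Only the siSCR arrays with testosterone stood low, and the difference between responses was 4.34 ± 0.23, adjusted p = 7.75e-08 by limma. TRIM48 of the same group changed by -0.15 ± 0.21 in siPIAS1 cells and by -4.21 ± 0.21 in siSCR cells, a difference of 4.06 ± 0.30 that was 3.77 without replicate 3. TRIM49D2 rose by 1.04 ± 0.15 in siPIAS1 cells and changed by -2.40 ± 0.15 in siSCR cells. The 3 TRIM genes have close paralogs on the same chromosome, whose probes may not be separable. UGT2B28 read 9.21, 8.97 and 9.0 in siPIAS1 cells with testosterone, and its probe was detected on no array of the other 3 groups (difference 3.54 ± 0.17). LYZ likewise was detected only in siPIAS1 cells with testosterone (difference 3.50 ± 0.13).

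**Figure D4:**
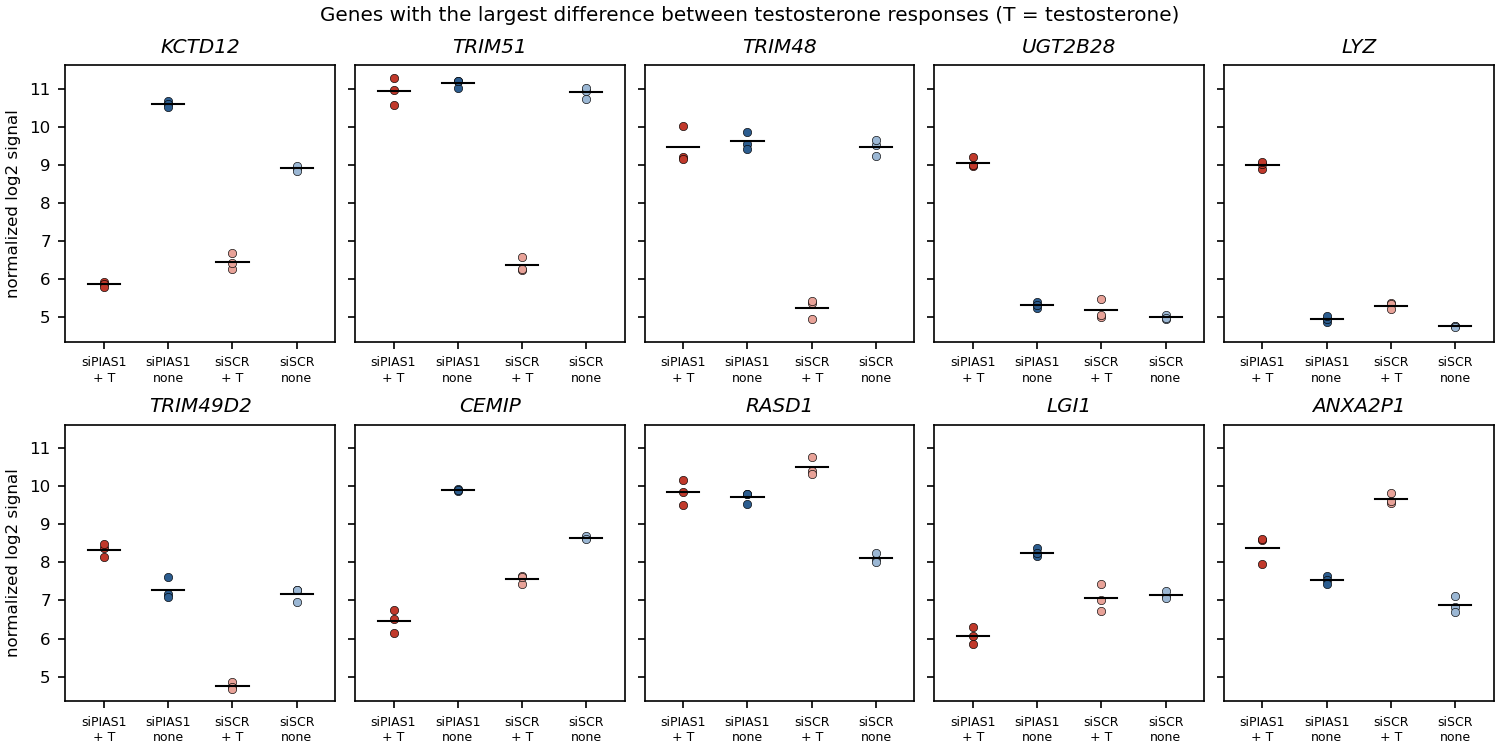
Normalized log2 signal (vertical axis) on each array of the 10 genes with the largest differences between the testosterone response after siPIAS1 and that after siSCR; points are arrays, bars are means of 3, and T is testosterone. TRIM51 and TRIM48 are low only in siSCR cells with testosterone, and UGT2B28 and LYZ are high only in siPIAS1 cells with testosterone.

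In the largest negative differences, a decrease was larger or an increase smaller after PIAS1 siRNA. CEMIP, which takes part in hyaluronan breakdown, read 6.51, 6.76 and 6.15 with testosterone, against 9.92, 9.87 and 9.88 without it in siPIAS1 cells and 7.64, 7.44 and 7.62 with testosterone, against 8.64, 8.69 and 8.61 without it, in siSCR cells. It fell in both, by 3.42 ± 0.13 and 1.08 ± 0.13, and the difference was -2.34 ± 0.18, adjusted p = 3.18e-06. KCTD12 had a difference of -2.27 ± 0.16, and LGI1, a secreted synaptic protein gene, was at least 4.04-fold lower in siPIAS1 cells and changed by -0.08 ± 0.16 in siSCR cells. CEMIP, KCTD12 and LGI1 were also higher in siPIAS1 than in siSCR cells without testosterone, by 1.24, 1.68 and 1.11 log2 units. RASD1, a glucocorticoid-inducible RAS-like gene, read 10.17, 9.84 and 9.50 with testosterone, against 9.79, 9.79 and 9.53 without it in siPIAS1 cells and 10.76, 10.40 and 10.31 with testosterone, against 8.09, 8.25 and 8.0 without it, in siSCR cells. Its untreated siPIAS1 arrays already lay above the untreated siSCR arrays. The annexin pseudogene ANXA2P1 rose by 0.84 ± 0.17 in siPIAS1 cells and by 2.78 ± 0.17 in siSCR cells, and its probe may not be separable from the parent gene.

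Of the genes described above, the kallikrein KLK2 had a difference of -1.11 ± 0.15, adjusted p = 3.50e-04, with 13.70, 13.96 and 13.84 in siSCR cells with testosterone and 12.74, 13.08 and 12.87 in those without it. That of KLK3, which was not detected in untreated siSCR cells, was -0.66 ± 0.24, adjusted p = 0.0953 and did not pass with all arrays, and its adjusted p was 0.0249 without replicate 3. MYC fell further in siPIAS1 cells (-1.55 ± 0.17), and ERRFI1 rose further (1.55 ± 0.15). PGC and S100P, undetected without testosterone after either siRNA, had differences of 2.07 ± 0.23 and 2.11 ± 0.15 whose size is therefore uncertain. The decrease of ADAMTS1 was smaller in siPIAS1 cells (1.70 ± 0.15). FKBP5 and SGK1 had differences of -0.03 ± 0.13, adjusted p = 0.899 and -0.07 ± 0.14, adjusted p = 0.793, and neither passed. Among the lists, the difference passed in 10 of 30 androgen-induced, 8 of 15 androgen-repressed, 7 of 36 replication, 2 of 36 mitosis, and 8 of 26 unfolded protein response genes, beside 9.94% of all genes. In that order, positive and negative differences numbered 7 and 3, 7 and 1, 7 and 0, 2 and 0, and 7 and 1, beside 523 and 542 of all genes. Other lists also held larger shares than all genes, such as the insulin-like growth factor axis (5 of 11) and tyrosine kinase feedback (4 of 11). By limma the difference passed in 0 of 34 vesicle transport and 0 of 20 cholesterol genes, of which 4 and 6 had an unadjusted p under 0.05.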

How the data were processed

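Per the file headers, the authors deposited scanner intensities of 47323 probes on 12 arrays without normalization, each beside a detection p-value. A second table by the authors holds normalized log2 values; lumi is named in the submitters' processing notes, with no settings, so this table served only as an alternative. Its array medians lay at 7.60 to 7.61 and it ranked the probes as the intensities did, so the scale is log2-like and the direction is kept, while its exact normalization is unknown.

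The intensities were background-corrected from the detection p-values and quantile-normalized by the function neqc (limma 3.58.1, R 4.3.3; offset 16, which compresses folds of dim probes). Probes detected at p under 0.01 on at least 3 arrays were kept (17835). They were named through the platform annotation and updated to RefSeq symbols (GRCh38.p14); 1 gene symbol was listed for 30113 probes, several for 8 and none for 17202. The brightest kept probe stands for a gene. One model of 4 group means was fitted to all 12 arrays (8 residual degrees of freedom); p-values are two-sided and adjusted over 10710 genes. The median standard error was 0.126. The number of arrays limits the precision. With groups of 3, exact permutation allows no p under 0.1, so it was left out. "At least N-fold" is the mean of the brighter group over the mean, per array, of the higher of the lowest detected signal and the probe's own, where the dimmer group was detected on no array.

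Named genes were PIAS1; the 12 largest called changes in each direction with groups that do not overlap and detection on all 3 arrays of the brighter group; the 5 largest called differences between responses in each direction; and of each of 34 lists up to 4 members with the smallest p and the largest called change against the majority. A gene that this rule names is not reported here. The members and lists were chosen with earlier results of these data known. Same-numbered siPIAS1 arrays did not deviate together (correlations 0.0129, -0.0338 and -0.0202), so no replicate block was used. The fitting code was run on simulated data with independent normal noise and, for each gene, the same spread in all groups. That setting lacks the larger spread of replicate 3 of the siPIAS1 group with testosterone, so it checks the code only. Alternatives changed the background correction, offset, normalization, detection filter, probe rule, samples, array weights, replicate block and each array in turn.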

Additional observations from a re-analysis of the deposited data

Results flagged for a closer look

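The responses to testosterone after siPIAS1 and after siSCR differed, by the test of the difference itself, in 1065 genes. Of these, 24 are among the genes with the largest responses after siPIAS1 or the largest differences between responses. All values are log2 differences, the siPIAS1 response minus the siSCR response.

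Of the genes that rose most after siPIAS1, the difference was positive for S100P (2.11), PGC (2.07), ENTREP1 (1.74), SLC2A3 (1.24), SERPINA3 (1.16), NCAPD3 (1.08) and SLC26A3 (0.74). It was negative for ORM2 (-1.03). Of the genes that fell most, it was negative for KCTD12 (-2.27), MATN2 (-1.18), PPFIA2 (-1.17), REEP1 (-1.01), PTGER2 (-0.93), JAM3 (-0.82) and LUM (-0.57). PGC, SLC26A3, S100P and SERPINA3 were undetected without testosterone after either siRNA, and PPFIA2, LUM and MATN2 were undetected with it after either siRNA, so the size of their difference is uncertain in both directions. In siPIAS1 cells ENTREP1 was undetected without testosterone and KCTD12 with it, so the size of their difference is uncertain too. The same holds for SLC2A3 and ORM2, which were not detected on every siPIAS1 array without testosterone. For LUM the call passed at an adjusted p of 0.0393 by limma and was lost without any 1 of 8 arrays.

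The largest positive values were those of TRIM51 (4.34), TRIM48 (4.06), UGT2B28 (3.54), LYZ (3.50) and TRIM49D2 (3.45). The largest negative values, beside that of KCTD12, were those of CEMIP (-2.34), RASD1 (-2.24), LGI1 (-2.11) and ANXA2P1 (-1.94). The calls of these genes held without replicate 3 of the siPIAS1 group with testosterone. UGT2B28 and LYZ were detected only in siPIAS1 cells with testosterone, and LGI1 was undetected in those cells. The size of the difference is therefore uncertain for UGT2B28, LYZ and LGI1.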

How the results depend on the processing

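The called count of the testosterone response after PIAS1 siRNA (5899) stayed within 1.5 times under every alternative run, from 5000 with only the 6 siPIAS1 arrays to 6385 with array weights, and 5154 to 5962 when 1 array was left out. The count of changes of at least 2-fold (1309) was 717 without background correction and 477 with the authors' values, and 1196 to 1441 with 1 array left out. With scaling to the 75th percentile the split turned to 3026 higher and 2632 lower. The difference between responses passed for 2612 genes with array weights and for 656 to 1506 with 1 array left out, against 1065; the report names the arrays. A replicate block, fitted although the numbers share no deviation between siPIAS1 groups, gave 5816 called genes, 1309 of at least 2-fold and 942 for the difference between responses. No called difference of a named gene changed direction. The sign of list medians near 0 changed under some alternatives for SUMO conjugation, fatty acid oxidation, ERG-linked genes, and the fibroblast and blood marker lists. Over named genes and settings, 3315 values kept their side of the threshold, 21 lost the call and 18 gained it. Values that passed in neither fit may have changed sign and still count among the 3315. Of the list counts and medians 1615 stayed and 119 moved. A median counts as moved at the spread between the testosterone replicates or beyond, and a count when it changed by more than 1.5 times. No cause was tested. The number of arrays and the background signal limit small changes and dim genes.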

Other observations

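Probes of 1 gene did not always move together. Of 2707 genes with more than 1 detected probe, 36 had probes called in opposite directions in the testosterone response after PIAS1 siRNA, and in 2 of them both probes changed at least 2-fold. TSC22D1, a gene with long and short transcript forms, had probes at -1.56 and 1.78. EFR3B, which helps to anchor a lipid kinase at the plasma membrane, had probes at -1.25 and 1.07. Both were chosen after their values were seen, and which transcripts the probes read was not tested.

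Non-coding genes were among those called, and no test compared them with protein-coding genes. Of 161 long non-coding RNA genes, 25 were higher and 46 were lower with testosterone, and of 125 small nucleolar RNA genes 13 were higher and 24 were lower. Of 10176 protein-coding genes, 2633 were higher and 3044 were lower. Probes without a single listed gene also responded. Of 3767 such probes, 1643 were called (43.6%), with 762 higher and 881 lower and 341 changed at least 2-fold, beside 51.3% of all 17835 probes fitted.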
